A study of Mus musculus with 58 samples.

Results

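Wild-type mice that received fluoxetine as pups were compared with wild-type mice that received vehicle, in whole prefrontal cortex RNA. The comparison takes 19 of the 58 libraries of the series, chosen by the genotype and drug that the labels give: 10 WT fluoxetine mice (5 females and 5 males) and 9 WT vehicle mice (5 females and 4 males), each a library of its own. All were C57BL/6J mice of a colony studied for a Tanc2 heterozygous (HT) allele, and these 19 carry the wild-type genotype. Fluoxetine or vehicle reached the pups through the milk of the dam for 3 weeks, beginning on postnatal day 3 and ending on day 24, and the cortex was collected on day 25. No source used here gives a dose. A treated dam nurses all her pups and the labels name no litter, so each p-value takes the mice as separate units and covers only the spread between them.

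Fluoxetine blocks the serotonin transporter and so prolongs the action of serotonin released in the cortex by fibres from the raphe nuclei. Cortical neurons answer synaptic activity and calcium entry by switching on immediate early genes within minutes: transcription factors such as Fos, Egr2 and the Nr4a receptors, and effectors such as Arc, which acts at the synapse. A second system that turns over in the young brain is cholesterol synthesis, whose enzymes are switched on together by the transcription factor SREBP2 when sterols run low and are held back by the INSIG proteins when sterols are plentiful.

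Recovered reads numbered 23521835 to 37801615 per library in fluoxetine mice and 26946192 to 30390890 in vehicle mice, and 17925 genes entered the test. Values are normalized reads, that is reads divided by a size factor of the library, and differences are log2(fluoxetine) minus log2(vehicle) of the value plus 1, with their SE, weighing females and males equally. Markers of cortical excitatory neurons were high in every library, with a summed level of 107534 to 172933 in fluoxetine mice and 138409 to 166485 in vehicle mice. In bulk tissue, fewer cells of a type and less RNA per cell cannot be told apart. Some libraries stood apart. WT fluoxetine females 2, 3 and 4 held 236, 154 and 222 normalized reads of the processed pseudogene Gm10221, which had 0 in the 9 vehicle mice and in the other 7 fluoxetine mice. The same 3 libraries had 65695, 57571 and 44646 normalized reads of mt-Atp6, against 23007 and 11019 in the other 2 fluoxetine females. The summed level of olfactory bulb and migrating neuroblast markers was 27531, 17020 and 18097 in fluoxetine female 3, fluoxetine female 4 and fluoxetine male 5, and 14202 in vehicle male 3, against 2531 to 12232 in the other 15 libraries. Counts are therefore also given without the libraries that hold Gm10221 reads and, a choice made after seeing the data, without these 4 libraries.

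Tanc2, the gene for which the colony was bred, had 6566, 7649.5 and 8155 normalized reads at its lowest, median and highest in fluoxetine mice, against 6939, 7680.1 and 8005 in vehicle mice. The groups overlapped across nearly their whole range, and the difference was -0.0039 ± 0.044 (limma adjusted p = 0.991). Tanc2 (ENSMUSG00000053580, chromosome 11, 105589986 to 105929304, plus strand, GRCm38) encodes a scaffold protein of the postsynapse.

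Fluoxetine changed the level of 248 genes in WT cortex, 1.38% of those tested, and more of them fell than rose. With a limma adjusted p under 0.05, 164 genes (0.915%) were lower and 84 (0.469%) were higher in fluoxetine mice, while over all genes tested the median difference was 0.00044 and 49.8% lay below 0. The changes were small. The 164 that fell had a median of -0.31, and 6 of them fell at least 2-fold; 77 fell by less than 0.3 on the log2 scale. The 84 that rose had a median of 0.37, and 28 of them rose by less than 0.3. Of the genes that fell 158 were protein-coding, and of those that rose 61. Among the 164, 25 had every fluoxetine library below every vehicle library, against 27 of all genes tested (0.151%). Among the 84, the 3 genes Mertk, Zfp867 and Smad6 had every fluoxetine library above every vehicle library, and these were the only 3 of all genes tested (0.0167%). Gm10221 is itself among the 84 with limma, through 3 libraries alone, and its edgeR adjusted p was 1. Without the libraries that hold Gm10221 reads, 110 genes were lower (0.614%) and 36 higher (0.201%), with 108 of these 146 among the 248. In that setting 247 of the 248 kept their direction. It left 27 of the 58 libraries of the series out of the fit, among them 3 of the 10 WT fluoxetine mice. The spread shared by all groups was therefore also estimated from fewer libraries, here and wherever this setting is given below. Without the 4 libraries high in olfactory bulb markers, 114 were lower and 35 higher, with 118 of these 149 among the 248, and all 248 kept their direction.

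**Figure D1:**
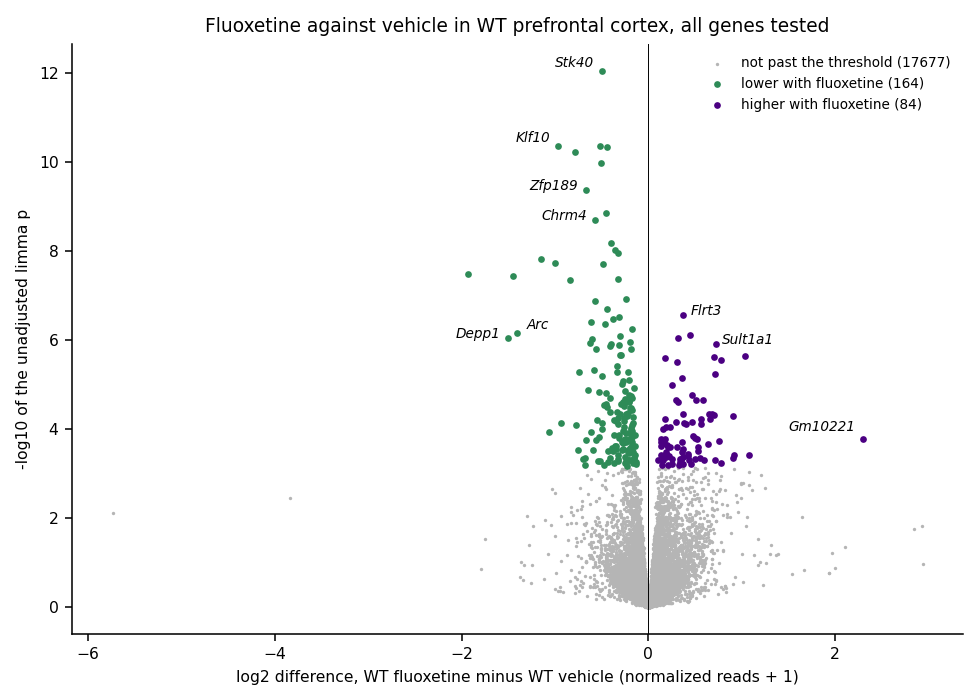
Each point is a gene tested, with the log2 difference between WT fluoxetine and WT vehicle mice on the horizontal axis and -log10 of the unadjusted limma p on the vertical axis; green points are the 164 genes past the threshold that were lower with fluoxetine, purple points the 84 that were higher. The smallest p values belong to genes that were lower, led by Stk40, and few of the coloured points lie beyond a log2 difference of 1 in either direction.

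The smallest p among the genes that fell belonged to Stk40, Nab2 and Klf10. Stk40, a pseudokinase that brings substrates to the COP1 ubiquitin ligase (ENSMUSG00000042608, chromosome 4, 126103957 to 126141029, plus strand), had 723, 809.8 and 889.5 normalized reads at its lowest, median and highest in fluoxetine mice, against 1018, 1168 and 1223 in vehicle mice. Every treated mouse lay below every vehicle mouse, and the difference was -0.50 ± 0.053 (limma adjusted p = 1.61e-08). Nab2, a corepressor that binds EGR transcription factors and is itself induced by them (ENSMUSG00000025402, chromosome 10, 127660918 to 127668568, minus strand), had 640.4, 729 and 802 in fluoxetine mice, against 949, 1024 and 1155 in vehicle mice. The groups were again separate, at -0.51 ± 0.062 (adjusted p = 2.1e-07). Klf10, a zinc-finger factor induced by TGF-beta and by activity (ENSMUSG00000037465, chromosome 15, 38291463 to 38300706, minus strand), ran from 404 to 680.0 with a median of 609 in fluoxetine mice, against 751 to 1355 with a median of 1240.3 in vehicle mice. Its groups did not overlap either, and it differed by -0.97 ± 0.12 on the log2 scale (adjusted p = 2.1e-07).

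Zfp366, a zinc-finger corepressor of nuclear receptors, was at 200.3 to 300.4 with a median of 218 normalized reads with fluoxetine, against 357 to 498 with a median of 382 with vehicle. The groups were separate although fluoxetine female 5 and fluoxetine male 5 lay well above the rest of their groups, and the difference was -0.78 ± 0.095 (limma adjusted p = 2.1e-07). Phf13, a reader of methylated histone H3, had 296, 323 and 369.7 in fluoxetine mice, against 379.8, 452 and 486 in vehicle mice, with no overlap and a difference of -0.44 ± 0.053. Tmem252, a small membrane protein, had 22.1, 50.1 and 61.2 in fluoxetine mice, against 73.9, 91 and 139 in vehicle mice, which is few reads but again without overlap (-1.15 ± 0.17). The group without overlap also held Zfp667 (-0.36 ± 0.053), a zinc-finger protein, and Ackr3 (-0.48 ± 0.073), a scavenger receptor for CXCL12 and adrenomedullin. Groups overlapped at the edge for Itpkc (-0.51 ± 0.063), a kinase of inositol trisphosphate, for Zfp189 (-0.67 ± 0.087), a zinc-finger protein, and for Iffo2 (-0.33 ± 0.048), a relative of intermediate filament proteins. In each of these 8 genes all 10 treated mice lay below the vehicle mean of their sex.

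**Figure D2:**
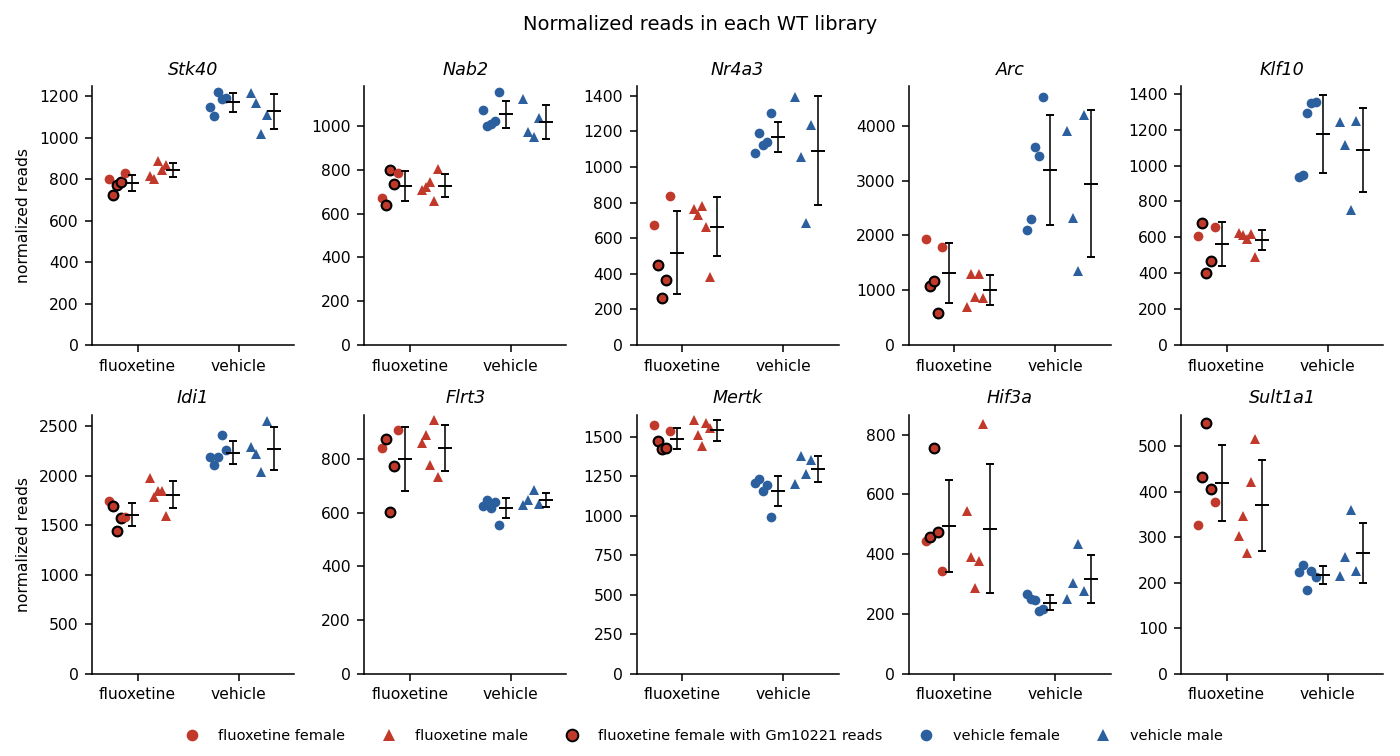
Normalized reads of 10 genes in each of the 19 WT libraries, with fluoxetine in red and vehicle in blue, circles for females and triangles for males; a black ring marks the 3 fluoxetine females with Gm10221 reads, and the bars beside the points give mean and SD of each sex. Stk40, Nab2, Klf10 and Idi1 are lower and Mertk is higher in every treated mouse than in any vehicle mouse, while Nr4a3, Arc, Flrt3, Hif3a and Sult1a1 overlap.

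Of 31 tested immediate early transcription factors 10 fell and 1, Klf6, rose, where 0.915% and 0.469% of all genes did. The median was -0.36 and 26 of 31 lay below 0. This list and those below were written with earlier results of these data known, so their counts beside the share of all genes are descriptions. Besides Klf10, Nr4a3 stood out, an orphan nuclear receptor (ENSMUSG00000028341, chromosome 4, 48045153 to 48086447, plus strand), with 265, 669 and 836 normalized reads in fluoxetine mice, against 684, 1138 and 1393 in vehicle mice. Only vehicle male 3, at 684, lay within the fluoxetine range, and the difference was -0.999 ± 0.15 (limma adjusted p = 2.35e-05). The lowest values came from fluoxetine female 3 (265), fluoxetine female 4 (366) and fluoxetine male 5 (381), which are the 3 treated libraries high in olfactory bulb markers.

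Junb, an AP-1 subunit, had 461, 617 and 783 normalized reads in fluoxetine mice, against 610.3, 1147 and 1400.2 in vehicle mice, a difference of -0.75 ± 0.15 (limma adjusted p = 0.00177). Vehicle male 3 was the lowest of its group for Junb as well. Nr4a1, another receptor of the Nr4a family, had 941, 1193 and 1598 in fluoxetine mice, against 1182, 2112 and 2538 in vehicle mice (-0.64 ± 0.13, adjusted p = 0.00377). The groups overlapped for both, and all 10 treated mice lay below the vehicle mean of their sex. Ier5, a serum-induced gene whose product binds heat shock factor 1, and its relative Ier5l differed by -0.36 ± 0.084 and -0.62 ± 0.11. Fos (-0.94 ± 0.22), Fosb (-0.67 ± 0.17), Fosl2 (-0.50 ± 0.12) and Egr2 (-1.06 ± 0.25), AP-1 and EGR factors, complete the 10 members that fell. Not every member of the set passed. Egr1, named here because it is widely measured, had 1949, 4049 and 6976 normalized reads in fluoxetine mice, against 2911, 5651 and 7014 in vehicle mice (-0.53 ± 0.17, adjusted p = 0.138). Npas4, the factor most particular to neuronal calcium signals, had 336, 492 and 674 in fluoxetine mice, against 384, 436 and 773 in vehicle mice (0.082 ± 0.20, adjusted p = 0.948). Klf6, a Krueppel-like factor, was higher at 0.19 ± 0.045 (adjusted p = 0.0129).

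Among effectors of neuronal activity 12 of 50 members fell and 0 rose, where 0.915% and 0.469% of all genes did, with a median of -0.15 and 39 of 50 below 0. Arc, whose protein forms virus-like capsids and removes AMPA receptors from synapses (ENSMUSG00000022602, chromosome 15, 74669083 to 74672570, minus strand), had 586, 1124 and 1927 normalized reads in fluoxetine mice, against 1354, 3441 and 4522 in vehicle mice. All 10 treated mice lay below the vehicle mean of their sex, but vehicle male 3, at 1354, fell within the treated range. The difference for Arc was -1.40 ± 0.25 on the log2 scale (limma adjusted p = 0.000432), and the means were 1156 ± 441 normalized reads (SD, n = 10) with fluoxetine, against 3082 ± 1095 (SD, n = 9) with vehicle.

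Arl4d, a small GTPase, had 265, 309 and 396 in fluoxetine mice, against 377, 487 and 550.2 in vehicle mice (-0.57 ± 0.093, limma adjusted p = 0.000116). Gadd45b, which takes part in DNA demethylation at activity-regulated genes, had 159, 184 and 215 in fluoxetine mice, against 212, 295 and 354 in vehicle mice (-0.56 ± 0.10, adjusted p = 0.00069). The groups overlapped at the edge for both. The constitutively active receptor Gpr3 (-0.58 ± 0.11), the transcriptional coactivator Sertad1 (-0.42 ± 0.088) and the co-chaperone Dnajb5 (-0.21 ± 0.044) followed, with overlapping groups. Of 23 genes that feed back on ERK signalling 2 fell, Spry4 (-0.38 ± 0.064, adjusted p = 0.000237), an inhibitor of receptor tyrosine kinase signalling, and Dusp6 (-0.38 ± 0.099, adjusted p = 0.0303), the phosphatase of ERK itself; the median of the list was -0.055, and 0.915% of all genes fell. The count was 1 without the libraries that hold Gm10221 reads, without those high in olfactory bulb markers, and without any single one of fluoxetine females 3 and 4, fluoxetine male 5, vehicle females 4 and 5 and vehicle males 1 and 4.

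The libraries set apart above moved with these lists. Without the libraries that hold Gm10221 reads, 4 of the 31 transcription factors were lower (Klf10, Nr4a3, Ier5l and Ier5), 1 was higher and the median was -0.29; 6 of the 50 effectors were lower. Without the 4 libraries high in olfactory bulb markers the counts were 5 of 31 and 10 of 50, and with the presence of Gm10221 reads as a term in the fit of all libraries they were 3 of 31 and 3 of 50. By limma, Arc then stood at -1.09 (adjusted p = 0.0633) without the libraries with Gm10221 reads and at -1.37 (adjusted p = 0.00232) without those high in olfactory bulb markers, and Fos at -0.55 (adjusted p = 0.406) and -0.85 (adjusted p = 0.0588). Without the libraries with Gm10221 reads, several genes named above did not pass by limma: Junb was at -0.65 (adjusted p = 0.0869), Nr4a1 at -0.47 (adjusted p = 0.258), Gpr3 at -0.42 (adjusted p = 0.179), Sertad1 at -0.35 (adjusted p = 0.154), Dnajb5 at -0.14 (adjusted p = 0.255) and Dusp6 at -0.23 (adjusted p = 0.526). Stk40, Nab2, Klf10, Nr4a3, Ier5l, Arl4d, Gadd45b and Spry4 passed in both settings.

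Nab2 and Nr4a3 had the smallest p among the activity genes that have an entry in the RefSeq promoter table, and their promoters (250 bases before to 50 after the RefSeq start site, GRCm38.p6) are shown because the cAMP response element is a known route from activity to such genes. Klf10 and Arc have no entry. Capitals mark matches to TGACG, the core of the cAMP response element, on either strand; further letters searched were the full element TGACGTCA, the E-box CACGTG, the EGR motif GCGTGGGCG, the classical sterol element SRE-1 and the CCAAT box, each on both strands, and TGACG also lies within TGACGTCA.
Nr4a3, chr4:48045055-48045354, plus strand: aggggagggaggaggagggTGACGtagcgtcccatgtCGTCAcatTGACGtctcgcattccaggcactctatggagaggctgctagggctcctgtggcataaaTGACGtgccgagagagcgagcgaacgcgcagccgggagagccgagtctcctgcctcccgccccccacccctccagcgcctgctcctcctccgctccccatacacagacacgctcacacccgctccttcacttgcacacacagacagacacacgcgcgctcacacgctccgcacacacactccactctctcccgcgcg
Nab2, chr10:127666654-127666953, minus strand: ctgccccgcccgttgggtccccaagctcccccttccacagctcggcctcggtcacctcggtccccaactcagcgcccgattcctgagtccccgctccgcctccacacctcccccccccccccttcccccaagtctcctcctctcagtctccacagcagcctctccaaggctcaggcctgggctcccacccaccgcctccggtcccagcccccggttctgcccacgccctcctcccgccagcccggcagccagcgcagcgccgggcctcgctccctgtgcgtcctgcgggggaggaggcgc
The Nr4a3 window holds TGACG or its reverse complement at 4 places, starting 231, 213, 205 and 147 bases before the start site, and the Nab2 window holds none of the letters searched. GENCODE also lists a Nab2 transcript that starts upstream of this window, which is why the gene position above reaches further. That start was not searched. The GENCODE position of Nr4a3 also begins before its RefSeq start site, so its match at 147 lies inside the gene there. Over 12668 tested genes with a promoter entry, 29.6% hold TGACG; among the 121 genes that fell and have an entry the share is 37.2%, and among the 56 that rose it is 25.0%. The full element TGACGTCA is in 3.04% of all windows, 3.31% of those of genes that fell and 3.57% of those that rose. The EGR motif is in 1.18% of all windows, in 4 of the 121 (3.31%) and in 0 of the 56. These are counts of letters in a fixed window and name no binding site.

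Cholesterol synthesis held members that fell in fluoxetine mice and none that rose. Of 8 genes of mevalonate and isoprenoid synthesis 4 fell, 0 rose and all 8 lay below 0, with a median of -0.22. Of 12 genes from squalene to cholesterol 5 fell, 0 rose and all 12 lay below 0, with a median of -0.23. Over all genes tested 0.915% were lower. The median of the 12 was -0.24 in females and -0.19 in males, and that of the 8 was -0.23 in females and -0.19 in males.

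Idi1, the isomerase that interconverts the isoprene units (ENSMUSG00000058258, chromosome 13, 8885501 to 8892451, plus strand), had 1442, 1718 and 1972 normalized reads in fluoxetine mice, against 2033, 2222 and 2556 in vehicle mice. The groups were separate, and the difference was -0.40 ± 0.058 (limma adjusted p = 1.19e-05). Hmgcs1, which makes HMG-CoA at the entry of the pathway, had 7387, 10043 and 12009 in fluoxetine mice, against 10906, 12842 and 13623 in vehicle mice (-0.33 ± 0.065, adjusted p = 0.00177). The groups overlapped, and every treated mouse lay below the vehicle mean of its sex. Mvd and Fdps, enzymes toward farnesyl diphosphate, differed by -0.28 ± 0.069 and -0.27 ± 0.059.

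In the sterol arm, Cyp51, the lanosterol demethylase, had 1686, 1950.1 and 2173 normalized reads in fluoxetine mice, against 2102, 2428 and 2674 in vehicle mice (-0.31 ± 0.057, limma adjusted p = 0.000601). Sqle, which oxidises squalene, had 1569.6, 1814 and 2072 in fluoxetine mice, against 1912, 2313 and 2523 in vehicle mice (-0.30 ± 0.056, adjusted p = 0.00089). Every treated mouse lay below the vehicle mean of its sex for both. Fdft1, which makes squalene, differed by -0.24 ± 0.057, the methyl oxidase Msmo1 by -0.27 ± 0.069 and the desaturase Sc5d by -0.25 ± 0.053. Lss, Tm7sf2, Nsdhl, Hsd17b7, Erg28, Ebp and Dhcr7 did not pass, and all 7 lay below 0.

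**Figure D3:**
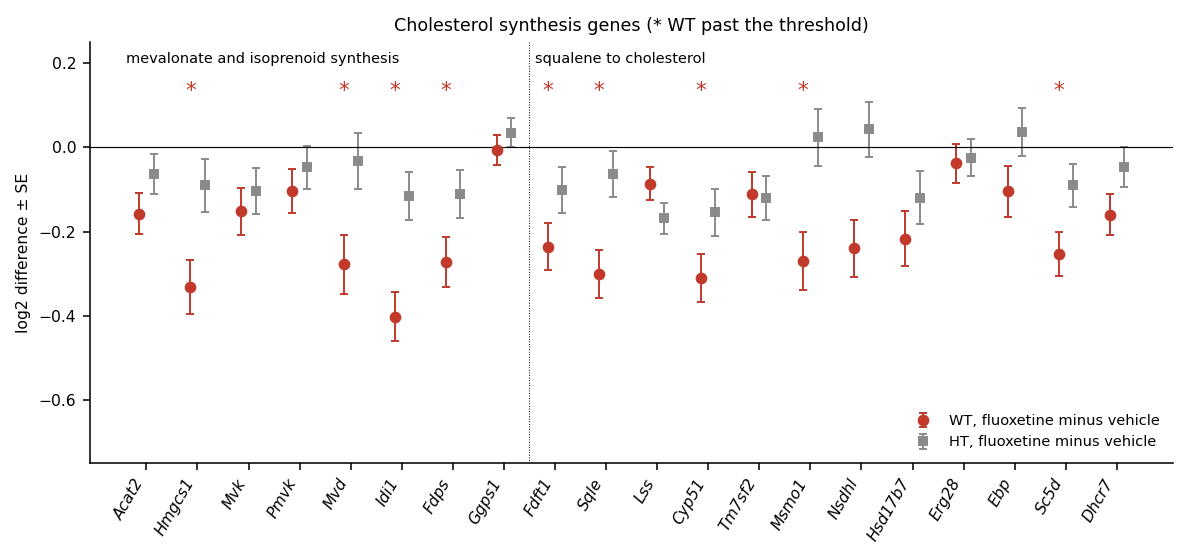
Log2 difference between fluoxetine and vehicle with its SE for genes of cholesterol synthesis, in the order of the pathway, in WT mice (red circles) and HT mice (grey squares); a star marks WT values past the threshold. In WT mice the 20 genes lie below 0, from -0.0060 for Ggps1 to -0.40 for Idi1.

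Among 27 regulators of SREBP and of lipid uptake and efflux 4 fell and 0 rose, where 0.915% and 0.469% of all genes did, and the median was -0.028. Insig1, which retains SREBP in the endoplasmic reticulum and is itself an SREBP target (ENSMUSG00000045294, chromosome 5, 28071363 to 28078662, plus strand), had 1516, 1601 and 1733 normalized reads in fluoxetine mice, against 1809, 2111 and 2238 in vehicle mice. The groups did not overlap, and the difference was -0.33 ± 0.051 (limma adjusted p = 4.12e-05). Stard4, a cholesterol carrier, had 712, 762 and 1026 in fluoxetine mice, against 931, 1046 and 1169 in vehicle mice (-0.40 ± 0.073, adjusted p = 0.000584). The groups overlapped for Stard4, but all 10 treated mice lay below the vehicle mean of their sex. Srebf2, which encodes SREBP2, differed by -0.18 ± 0.039 and Rdh11, a retinal reductase, by -0.19 ± 0.044. Efflux genes of this list such as Abca1 and Abcg1 did not pass, and of 25 genes of fatty acid synthesis and desaturation 0 passed in either direction (median -0.048).

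Without the libraries that hold Gm10221 reads, 1 of the 8 mevalonate genes (Idi1), 2 of the 12 sterol genes (Cyp51 and Sqle) and 3 of the 27 regulators (Insig1, Stard4 and Rdh11) passed, with medians of -0.12, -0.16 and -0.0017. Without the 4 libraries high in olfactory bulb markers, 2, 2 and 3 passed, with medians of -0.16, -0.16 and -0.045, and with the presence of Gm10221 reads as a term 1, 1 and 3 passed. Fluoxetine female 3 was the lowest library for the summed mevalonate genes, and leaving out that library alone, or vehicle male 1 alone, left 3 of 8 and 3 of 12. Markers of myelinating oligodendrocytes, which make much of the cholesterol of the young brain, also lay below 0 in all 10 members (median -0.22, 0 past the threshold). Their summed level was 76932, 131614 and 201656 in fluoxetine mice at its lowest, median and highest, against 94268, 149000.0 and 183505 in vehicle mice. Without the libraries that hold Gm10221 reads the oligodendrocyte median was 0.082, and without the 4 high in olfactory bulb markers -0.11. The part of these markers in the result was not tested.

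Idi1 and Insig1 had the smallest p of the cholesterol lists, and their promoters are shown because SREBP2 acts at many of its target genes together with NF-Y, which binds CCAAT boxes. Capitals mark CCAAT or its reverse complement, the E-box CACGTG, and TGACG or its reverse complement.
Idi1, chr13:8885356-8885655, plus strand: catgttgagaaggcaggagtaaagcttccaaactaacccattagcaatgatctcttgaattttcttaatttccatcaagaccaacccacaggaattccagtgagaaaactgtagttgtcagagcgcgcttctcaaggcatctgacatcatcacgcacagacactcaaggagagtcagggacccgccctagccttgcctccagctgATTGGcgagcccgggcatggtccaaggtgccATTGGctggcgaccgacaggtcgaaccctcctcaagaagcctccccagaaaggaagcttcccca
Insig1, chr5:28071162-28071461, plus strand: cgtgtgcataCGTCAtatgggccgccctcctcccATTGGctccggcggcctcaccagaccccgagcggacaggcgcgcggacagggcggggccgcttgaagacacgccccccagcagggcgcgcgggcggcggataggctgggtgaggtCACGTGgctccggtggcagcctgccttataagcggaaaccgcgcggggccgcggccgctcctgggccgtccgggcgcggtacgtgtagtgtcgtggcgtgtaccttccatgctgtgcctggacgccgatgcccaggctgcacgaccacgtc
The Idi1 window holds the reverse complement of CCAAT at 2 places, starting 45 and 14 bases before the start site. The GENCODE position of Idi1 begins before this RefSeq start site, at 8885501, so both matches lie inside the gene there. The Insig1 window holds the reverse complement of CCAAT 216 bases before the start site. It also holds the E-box at 101 and the reverse complement of TGACG at 240. CCAAT on either strand is in 38.3% of all windows, 40.5% of those of genes that fell and 44.6% of those of genes that rose, so its presence in a single window is common. The E-box is in 9.59%, 10.7% and 14.3%. The exact letters of SRE-1 are in 6 of the 12668 windows and in 0 of those of the genes that changed.

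Serotonin receptors and serotonin handling did not pass. Of 12 tested receptor genes 0 fell and 0 rose, with a median of -0.053, and of 9 tested genes of serotonin transport and metabolism 0 fell and 0 rose. At an unadjusted p under 0.05 these counts were 1 and 0, and edgeR and DESeq2 called 0 in both lists. Slc6a4, the transporter that fluoxetine blocks, is made mainly by neurons of the raphe, and it was not tested here. Per length of transcript the highest levels among the receptors belonged to Htr2a, the excitatory 5-HT2A receptor of pyramidal neurons, at 348 normalized reads per kb of exon in fluoxetine mice and 307 in vehicle mice. Its groups were at 1481, 1917 and 2376 normalized reads with fluoxetine, against 1571, 1724 and 1923 with vehicle, and the difference was 0.17 ± 0.065 (limma adjusted p = 0.259). Htr1a, an inhibitory receptor, was at 157 per kb with fluoxetine and 143 with vehicle (0.12 ± 0.08, adjusted p = 0.663). Htr2c, which couples to phospholipase C like Htr2a, was at 131 per kb with fluoxetine and 154 with vehicle (-0.24 ± 0.15), and Htr5a, an inhibitory receptor, at 130.0 and 138 (-0.091 ± 0.064). Per kb, the libraries of Htr2a lay from 264 to 424 in fluoxetine mice and from 280.2 to 343 in vehicle mice, above every library of the other 3 receptors. Htr1a, Htr2c and Htr5a cannot be ordered, since their libraries overlapped in both groups and Htr1a averaged above Htr2c with fluoxetine but below it with vehicle.

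Among 8 muscarinic and dopamine receptors 1 fell, where 0.915% of all genes did. Chrm4, the inhibitory M4 muscarinic receptor (ENSMUSG00000040495, chromosome 2, 91927249 to 91928688, plus strand), had 233, 263 and 318 normalized reads in fluoxetine mice, against 329, 412 and 471 in vehicle mice. Every treated mouse lay below every vehicle mouse (-0.57 ± 0.079, limma adjusted p = 4.1e-06). M4 is also abundant in striatum. Markers of striatal projection neurons had a summed level of 7389, 7892 and 8782 at its lowest, median and highest in fluoxetine mice, against 6327, 7806 and 9954 in vehicle mice, with 0 of 9 markers past the threshold (median -0.14). In the circadian clock list 2 of 23 fell, where 0.915% of all genes did. Per1, a clock component that is also switched on by activity and by glucocorticoids, had 1867, 2018 and 2494 in fluoxetine mice, against 2450.0, 2826 and 3279 in vehicle mice (-0.45 ± 0.061, limma adjusted p = 3.09e-06). The repressor Bhlhe40 fell as well (-0.41 ± 0.092, adjusted p = 0.00825). Bhlhe40 was at -0.26 (adjusted p = 0.367) without the libraries with Gm10221 reads and at -0.34 (adjusted p = 0.0946) without those high in olfactory bulb markers.

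Of 29 tested glucocorticoid receptor genes and targets 5 rose and 2 fell, where 0.469% of all genes rose and 0.915% fell. The median was 0.12 and 22 of 29 lay above 0. By edgeR 8 were higher and 1 lower, and by limma with the presence of Gm10221 reads as a term 1 was higher and 0 lower. Per1, also switched on by glucocorticoids, fell (-0.45) but is counted in the clock list and not in this one. The counts thus depend on the list in which a gene was placed. Fkbp5, a chaperone that restrains the receptor and is induced by it, had 967, 1309 and 2208 normalized reads in fluoxetine mice, against 739, 839.9 and 1189 in vehicle mice (0.57 ± 0.13, limma adjusted p = 0.0102). The groups overlapped, and the highest value came from fluoxetine female 3, far above the other 4 females. Hif3a, a hypoxia factor induced by glucocorticoids, had 286, 451 and 834 in fluoxetine mice, against 209.7, 250.5 and 435 in vehicle mice (0.78 ± 0.15, adjusted p = 0.00103). Sult1a1, a sulfotransferase of phenols and drugs, had 264, 391 and 549.9 in fluoxetine mice, against 185, 225 and 359 in vehicle mice (0.70 ± 0.13, adjusted p = 0.000951).

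For Hif3a and Sult1a1 the highest vehicle mouse was male 3, at 435 and 359, and the highest treated mice were male 5 for Hif3a and female 3 for Sult1a1, all of them libraries high in olfactory bulb markers. Mertk and the secreted protease Htra1 also rose, Htra1 by 0.23 ± 0.06, and Errfi1, an inhibitor of EGF receptor signalling, and Ddit4, an inhibitor of mTOR, differed by -0.19 ± 0.048 and -0.33 ± 0.089. Plin4 had the largest difference of the list but did not pass (1.08 ± 0.33, adjusted p = 0.0935). By limma without the libraries that hold Gm10221 reads, Fkbp5 (adjusted p = 0.129), Hif3a (adjusted p = 0.0817) and Htra1 (adjusted p = 0.0916) did not pass, and without the 4 libraries high in olfactory bulb markers Fkbp5 (adjusted p = 0.0631) and Htra1 (adjusted p = 0.086) did not. The counts without those libraries were 4 higher and 1 lower, and 4 higher and 2 lower; Zbtb16, a zinc-finger repressor, passed in both (adjusted p = 0.00931 and 0.0279), and Plin4 in the first (adjusted p = 0.0399). Leaving out any single one of fluoxetine males 2 and 3, vehicle females 4 and 5 and vehicle males 1, 2 and 4 left 0 members lower.

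The genes with the smallest p among those that rose came from no single list. Flrt3, an adhesion protein that binds latrophilins and UNC5 receptors at synapses (ENSMUSG00000051379, chromosome 2, 140650914 to 140671469, minus strand), had 604, 850.0 and 944 normalized reads in fluoxetine mice, against 555, 632 and 685 in vehicle mice. Fluoxetine female 3, at 604, was the only treated mouse below the vehicle mean of its sex, and the difference was 0.37 ± 0.062 (limma adjusted p = 0.000215). It was the only member past the threshold among 15 FLRT, latrophilin, teneurin and UNC5 genes (median -0.059), where 0.469% of all genes rose. Mertk, a receptor tyrosine kinase with which glia engulf debris and synapses (ENSMUSG00000014361, chromosome 2, 128698956 to 128802894, plus strand), had 1420.3, 1524 and 1605 in fluoxetine mice, against 993, 1210.2 and 1379.8 in vehicle mice. The groups did not overlap (0.31 ± 0.058, adjusted p = 0.00112). Markers of microglia and astrocytes beside it had 0 of 7 and 0 of 8 members past the threshold, with medians of -0.026 and 0.017.

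Ccdc141, a centrosomal protein of migrating neurons, had 770.0, 928 and 1257 normalized reads in fluoxetine mice, against 573, 691 and 867 in vehicle mice (0.45 ± 0.079, limma adjusted p = 0.000464). Nrde2, a cofactor of nuclear RNA surveillance, had 423, 457 and 505 in fluoxetine mice, against 325, 359 and 453 in vehicle mice (0.31 ± 0.056, adjusted p = 0.000498). For both the groups overlapped, with every treated mouse above the vehicle mean of its sex. Ppp1r10, a nuclear subunit of protein phosphatase 1, had 1570.5, 1706 and 1834 in fluoxetine mice, against 1442, 1515 and 1586 in vehicle mice (0.17 ± 0.033, adjusted p = 0.000959), a small change in which all 10 treated mice lay above the vehicle mean of their sex. Smim3, a small membrane protein, differed by 0.51 ± 0.11, Lcmt2, a tRNA-modifying enzyme, by 0.37 ± 0.073 and Tceanc, named for a domain of transcription elongation factors, by 0.71 ± 0.14.

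Among the smallest p were also Saal1, a serum amyloid A-like protein (0.25 ± 0.051), the zinc-finger genes Zfp867 (0.46 ± 0.098) and Zfp518a (0.29 ± 0.063), Paqr5, a membrane progestin receptor (0.59 ± 0.13), and Setmar, a histone methyltransferase (0.37 ± 0.083). Without the libraries that hold Gm10221 reads these 5 did not pass by limma, with Saal1 at 0.20 (adjusted p = 0.0858), Zfp867 at 0.35 (adjusted p = 0.066), Zfp518a at 0.18 (adjusted p = 0.277), Paqr5 at 0.54 (adjusted p = 0.066) and Setmar at 0.32 (adjusted p = 0.277). Of the 25 genes of drug transport and metabolism 2 rose, Sult1a1 and the efflux pump Abcc4 (0.36 ± 0.09, adjusted p = 0.0225), and the median was 0.053, where 0.469% of all genes rose. The count was 1 without any single one of fluoxetine females 2 and 3, fluoxetine male 5, vehicle female 5 and vehicle males 1 and 4, and 0 with the presence of Gm10221 reads as a term.

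Feedback genes of TGF-beta and BMP signalling went in both directions. Smad7, the inhibitory SMAD that blocks TGF-beta receptors, had 325, 375 and 494 normalized reads in fluoxetine mice, against 440.3, 538 and 595 in vehicle mice (-0.47 ± 0.081, limma adjusted p = 0.000288). The groups overlapped, with all 10 treated mice below the vehicle mean of their sex. Smad6, the inhibitory SMAD of the BMP branch, had 41.3, 52.2 and 60 in fluoxetine mice, against 19.5, 30.6 and 39.8 in vehicle mice, with no overlap (0.66 ± 0.15, adjusted p = 0.0102). Id2, an inhibitor of basic helix-loop-helix factors, was higher at 0.15 ± 0.037 (adjusted p = 0.0141; without the libraries with Gm10221 reads adjusted p = 0.238). Of the 18 genes in the list 1 fell and 2 rose, where 0.915% and 0.469% of all genes did, and the median was 0.040. With the presence of Gm10221 reads as a term 1 fell and 0 rose.

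Of 23 chaperones of the endoplasmic reticulum 2 were higher and 0 lower, where 0.469% and 0.915% of all genes were. The median was 0.080 and 21 of 23 lay above 0. Dnajb11, a co-chaperone of BiP, had 1626, 1783 and 1898 normalized reads in fluoxetine mice, against 1536, 1642 and 1783 in vehicle mice (0.13 ± 0.034, limma adjusted p = 0.0352). Creld2, a secreted stress-induced factor, had 265, 322 and 452 in fluoxetine mice, against 233, 269.8 and 296 in vehicle mice (0.26 ± 0.069, adjusted p = 0.0393). The groups overlapped for both. Hspa5, which encodes BiP, had 5780.3, 7891 and 10725 in fluoxetine mice, against 6116, 6829.5 and 8488 in vehicle mice and did not pass (0.19 ± 0.062, adjusted p = 0.138). Without the libraries that hold Gm10221 reads 0 of the 23 passed by limma, with Dnajb11 at 0.15 (adjusted p = 0.0799), Creld2 at 0.33 (adjusted p = 0.0952) and a list median of 0.098, while edgeR on all libraries called 2. Leaving out any single one of fluoxetine female 3, fluoxetine males 2 and 4, vehicle females 3 and 5 and vehicle males 2, 3 and 4 also left 0.

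Synaptic gene lists had no member past the limma threshold. The median was 0.0027 for 6 NMDA receptor subunits, 0.025 for 17 AMPA receptor genes, 0.091 for 7 metabotropic glutamate receptors, -0.0068 for 22 scaffolds of the postsynaptic density and 0.0066 for 14 GABA-A receptor subunits. No member passed either among 24 genes of perineuronal nets and other brakes on plasticity (-0.032), 14 genes of BDNF and neurotrophin signalling (-0.000092), 16 sensors and factors of the unfolded protein response (0.0040), 24 cytosolic heat shock genes (-0.024), 36 nuclear-coded subunits of complex I (0.010) and 13 mitochondrially coded genes (0.056). Together with the fatty acid and serotonin lists, these 14 lists held 239 tested genes, of which 16 had an unadjusted p under 0.05, and edgeR and DESeq2 each called 1, a mitochondrially coded gene. Bdnf itself had 634, 958 and 1152 normalized reads in fluoxetine mice, against 849, 1045 and 1213 in vehicle mice (-0.16 ± 0.094, adjusted p = 0.594).

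**Figure D4:**
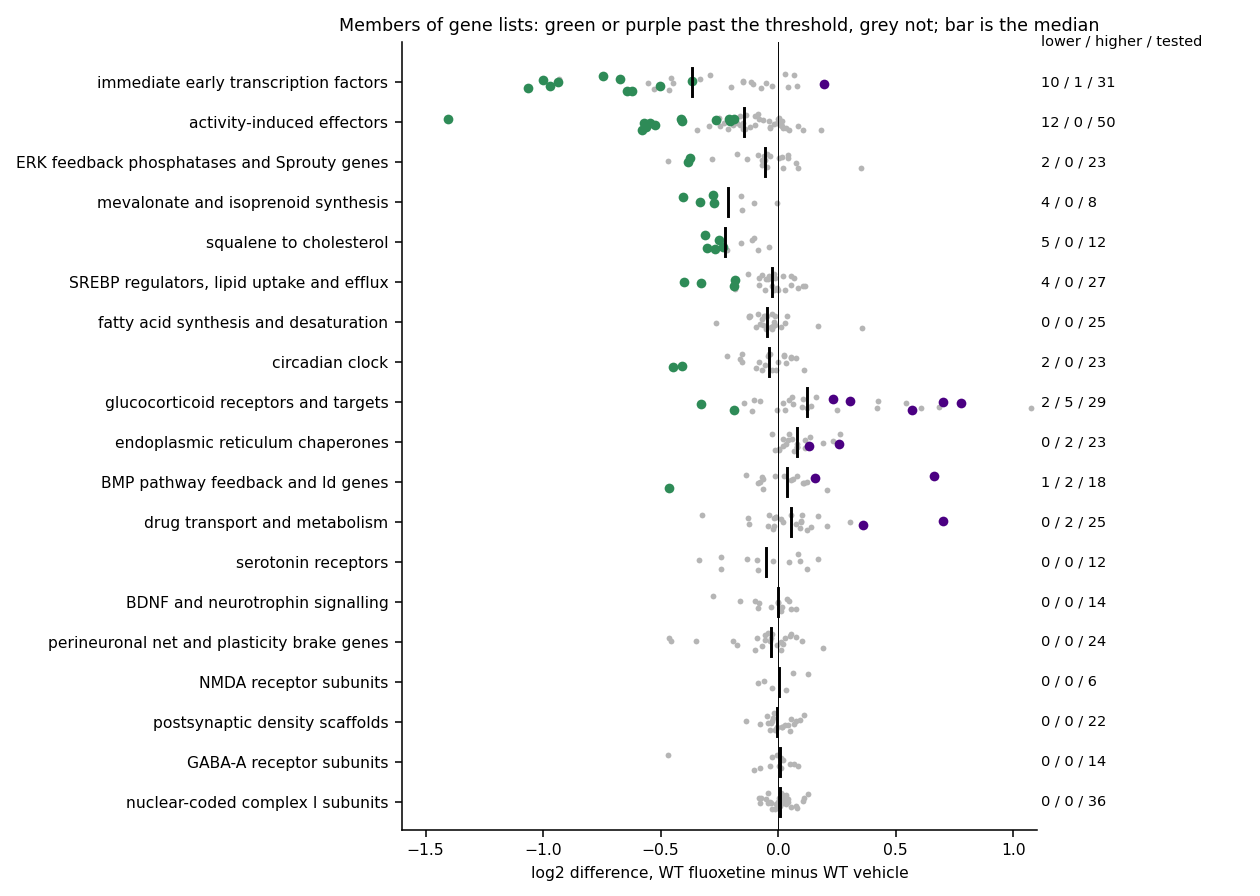
Log2 difference between WT fluoxetine and WT vehicle mice for every tested member of 19 gene lists, with members past the threshold in green (lower) or purple (higher), others in grey and the list median as a black bar; the numbers at the right give members lower, higher and tested. Green points gather in the lists of activity genes and cholesterol synthesis, and the lists of synaptic receptors and scaffolds hold grey points only.

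The same drug was given to HT mice of the series, which share no library with the WT mice compared here (10 HT fluoxetine and 10 HT vehicle mice). Since the labels name no litter, WT and HT mice may have been nursed by the same dams. The HT values may therefore not be independent of the WT values. Of the 164 genes that fell in WT mice, 161 lay below 0 in HT mice as well (98.2%, against 48.7% of all genes), with a median of -0.22, and of the 84 that rose 82 lay above 0 (97.6%, against 51.3% of all genes), with a median of 0.21. Past the limma threshold in HT mice were 97 of the 164 (59.1%, where 2.09% of all genes were lower) and 24 of the 84 (28.6%, where 1.46% of all genes were higher). They make up 25.9% of the 374 genes lower in HT mice and 9.20% of the 261 higher. Because all 5 HT fluoxetine females, but none of the HT fluoxetine males or HT vehicle mice, had Gm10221 reads, the males were read alone. In HT males 161 of the 164 lay below 0 (98.2%, against 50.1% of all genes; median -0.21) and 80 of the 84 lay above 0 (95.2%, against 49.9%; median 0.20). HT males alone gave 28 genes lower (0.156% of genes tested), of which 26 were among the 164 (92.9% of the 28 and 15.9% of the 164). They gave 9 genes higher (0.0502%), of which 3 were among the 84 (33.3% of the 9 and 3.57% of the 84).

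Stk40, which is in none of the activity lists, was at -0.50 ± 0.051 in HT mice. Among the activity genes the HT values were -0.54 ± 0.06 for Nab2, -0.82 ± 0.11 for Klf10, -0.53 ± 0.15 for Nr4a3 and -1.70 ± 0.24 for Arc. All of these passed the limma threshold. Zfp189 at -0.96 ± 0.084 and Per1, of the clock list, at -0.65 ± 0.059 lay further from 0 than in WT mice. For cholesterol genes the HT values lay nearer 0 than in WT mice, at -0.12 ± 0.056 for Idi1 (limma adjusted p = 0.277), -0.09 ± 0.063 for Hmgcs1 (adjusted p = 0.5) and -0.15 ± 0.055 for Cyp51 (adjusted p = 0.111), with Insig1 at -0.24 ± 0.049 (adjusted p = 0.00256) past the threshold. In HT mice 0 of the 8 mevalonate genes and 1 of the 12 sterol genes were lower, with medians of -0.076 and -0.076. The difference between genotypes was tested for each gene and passed for 0 genes with limma (unadjusted p under 0.05 in 1128, smallest adjusted p 0.232; DESeq2 2, edgeR 0). The smallest p among named genes belonged to Cbx7, a Polycomb subunit (-0.22 ± 0.052, HT effect minus WT effect, adjusted p = 0.652), Mpc2, a mitochondrial pyruvate carrier (0.28 ± 0.069), and Ier5 (0.47 ± 0.12), which was at 0.11 ± 0.081 in HT mice and -0.36 ± 0.084 in WT mice.

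**Figure D5:**
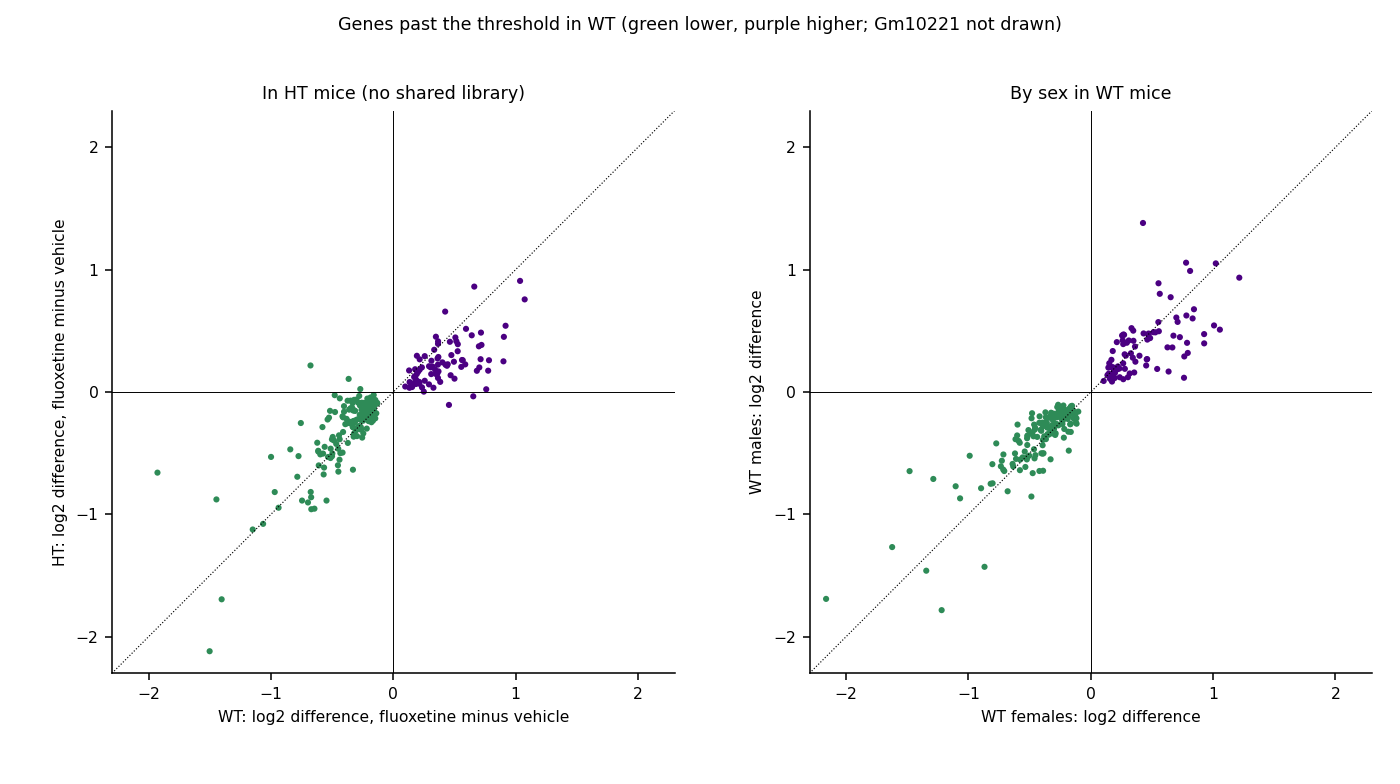
Log2 differences between fluoxetine and vehicle for the genes past the threshold in WT mice (green lower, purple higher; Gm10221 not drawn): left, HT mice against WT mice; right, WT males against WT females, with the dotted line at equal values. Nearly all points keep their sign in HT mice, where many lie nearer 0; the right panel splits the data that chose the genes and is a description.

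The changes were also read by sex. The 164 genes that fell had a median of -0.33 in WT females and -0.27 in WT males, and the 84 that rose had medians of 0.36 in females and 0.36 in males; with 248 genes chosen on both sexes together these medians are descriptions. A difference between the sexes in the fluoxetine effect passed for 0 genes with limma, where 330 had an unadjusted p under 0.05 (smallest adjusted p 0.593), 1 by DESeq2 and 0 by edgeR. The smallest p among named genes belonged to mt-Co2, a mitochondrially coded oxidase subunit, at -1.11 in females and 0.42 in males. Its values were 57746, 23578 and 38203 in the 3 fluoxetine females with Gm10221 reads, 100257 and 26008 in the other 2, and 65609 to 111045 in vehicle mice. Foxf2, a forkhead factor of brain pericytes, was at -0.35 in females and 0.37 in males, and Cebpd, a bZIP factor, at 0.46 and -0.45; neither passed. Arc was at -1.35 in females and -1.46 in males, Nr4a3 at -1.29 and -0.71, and Idi1 at -0.48 and -0.33.

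Lithium was given to other WT mice, and its effect is measured against the same 9 vehicle libraries, so values are set side by side only; all 10 WT lithium libraries held Gm10221 reads. Lithium lowered 3.13% and raised 4.34% of the genes tested. For lithium, Stk40 was at -0.035 ± 0.053 (limma adjusted p = 0.773), where fluoxetine gave -0.50 ± 0.053. Nab2 was at 0.018 ± 0.062, Klf10 at -0.15 ± 0.12, Arc at 0.16 ± 0.25 and Chrm4 at -0.10 ± 0.079, and none of these 4 passed. Idi1 was lower with lithium as well, at -0.25 ± 0.058 (adjusted p = 0.00336), and Sult1a1 and Fkbp5 were higher, at 0.63 ± 0.13 (adjusted p = 0.00154) and 0.64 ± 0.13 (adjusted p = 0.000948). Ier5 was higher with lithium at 0.32 ± 0.084 (adjusted p = 0.0106) and lower with fluoxetine at -0.36 ± 0.084.

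Markers of other cell types changed in 1 gene. Emcn, an endothelial sialomucin, fell, with a difference of -0.37 ± 0.10 (limma adjusted p = 0.0445). Of 8 endothelial markers 1 was past the threshold, where 0.915% of all genes fell, and their median was -0.098. Without the libraries with Gm10221 reads Emcn was at -0.32 (adjusted p = 0.185). Leaving out any single library other than fluoxetine females 2 and 5, fluoxetine male 2 and vehicle female 5 left 0 endothelial markers past the threshold. Of 7 mural cell markers all 7 lay below 0, with a median of -0.096. Lists of oligodendrocyte precursors, mural cells, red blood cells, meninges, choroid plexus, excitatory, inhibitory and olfactory bulb neurons had 0 members past the threshold by limma. With the astrocyte, microglia, striatal and oligodendrocyte lists these are 12 lists of 85 tested genes, of which 5 had an unadjusted p under 0.05 and 0 were called by edgeR or DESeq2. Red blood cell genes had a median of -0.36 with all 5 below 0, and their summed level was 6087 to 17883 in fluoxetine mice and 8324 to 23431 in vehicle mice. Olfactory bulb and neuroblast markers had a median of 0.16, with 0.47 in females and -0.20 in males, and -0.57 without the libraries with Gm10221 reads.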

How the data were processed

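The deposited table holds normalized counts, a depth-scaled signal: per the submitters' processing notes, which name Salmon 0.11.2, R 3.6.0, DESeq2 1.19.11 and GRCm38, and per its values, the authors divided reads per gene by a size factor of each library. Libraries came from a stranded mRNA kit, per the labels' protocols. Values are whole multiples of a step per library, 0.788 to 1.27 over the 19 libraries, so whole reads were recovered (100% of values within 0.01); in 11 of the 58 libraries the step lies too near 1 to be told from unscaled reads.

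Of 18088 genes, 17925 with a value of 10 or more in at least 4 libraries were kept. limma 3.58.1 (R 4.3.3) was fitted with a trend to log2(value + 1) over 58 libraries in 12 groups of genotype, drug and sex, so that all groups share an estimate of the spread; tests were two-sided, with Benjamini-Hochberg adjustment over all genes and a threshold of 0.05. Fold changes on this scale understate those of low genes. Alternatives were edgeR 4.0.16 and DESeq2 1.42.0 on recovered reads, other pseudocounts, filters and scalings, 2 surrogate variables (sva 3.50.0), a replicate block, and fits without libraries. On simulated data for this comparison (17925 genes, 50 changed at each fold), limma recovered 86% at 1.3-fold, 94% at 1.5-fold and 100% at 2-fold, with 11 false calls among 201. The changed genes were drawn from those with a mean of at least 50 normalized reads in WT vehicle mice. Simulated libraries were independent, with no litter and no group of libraries set apart. These figures therefore do not cover low genes or such libraries.

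The groups, gene lists and members were chosen with earlier results of these data known; some genes are not reported here and were left out of the lists. Named are Tanc2, the 15 genes of smallest p in each direction with a mean CPM of at least 1, up to 6 members of each list, the 4 highest serotonin receptors, and the 3 smallest p of each difference test; Fos, Fosb, Fosl2, Egr1, Egr2, Npas4, Ddit4, Plin4, Zbtb16, Hspa5, Bdnf, Emcn and the genes of the closing observations were added after their values were seen. Gene positions are from GENCODE release M21 (GRCm38), and 18077 IDs matched. Mice are numbered as in the titles, also in the replicate block; the library names number the WT vehicle males 1, 2, 4 and 5, so that vehicle male 3 and 4 are 4 and 5 there. The numbers of the titles were checked for pairing and did not pair the mice (r from -0.32 to 0.090 over 9 same-numbered pairs). All 171 pairs of libraries differed beyond sampling noise, and the sex of 19 of 19 libraries matched its label.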

Additional observations from a re-analysis of the deposited data

Results flagged for a closer look

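Among 75 named genes, 300 groups of 4 or 5 mice were tested for a library far from its nearest neighbour, and 14 were flagged; chance flags about 1 in 20 groups. Each group held mice of the same drug and sex, and lowest and highest below refer to that group only. Values are normalized reads, with the nearest mouse of the same group in brackets.

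In fluoxetine mice, male 5 was set apart in 4 genes. It was lowest for Klf10 at 487.8 (588.4) and for Klf6 at 1728 (2075), and highest for Zfp366 at 275.2 (221.9) and for Cebpd at 87.42 (48.32). Female 5 was highest for Zfp366 at 300.4 (226.1) and for Per1 at 2494 (2038). Female 3 was highest for Fkbp5 at 2208 (1341).

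In vehicle mice, male 3 was set apart in 4 genes. It was lowest for Tanc2 at 6961 (7782), for Ier5 at 1323 (1581) and for Dnajb11 at 1561 (1643), and highest for Zfp867 at 126.4 (106.4). Female 1 was highest for Zfp366 at 498.4 (397). Female 4 was highest for Klf6 at 1862 (1663), and female 3 was lowest for Smad6 at 19.49 (28.18). Fluoxetine male 5, fluoxetine female 3 and vehicle male 3 are among the 4 libraries highest in olfactory bulb markers.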

How the results depend on the processing

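The 248 genes changed became 158 when only the groups compared were fitted, 91 with the presence of Gm10221 reads as a term, 146 without the libraries that hold them, 149 without the 4 libraries highest in olfactory bulb markers, 67 in females alone and 18 in males alone. Leaving out a single mouse gave 159 (without vehicle male 1) to 373 (without fluoxetine female 5, with 154 higher); the 84 genes that rose became 49 without fluoxetine female 3, 55 without fluoxetine male 5, 52 without vehicle female 4, and 49, 49 and 47 without vehicle males 1, 2 and 4. The cause was not tested. edgeR called 247, DESeq2 295, and 2 surrogate variables gave 358. The replicate block gave 239 genes, 217 of them among the 248; 1 fluoxetine library correlated best with its own number. Of 65 named genes past the threshold, 55 passed whichever mouse was left out, 65 with edgeR and with the replicate block, 49 with only the groups compared, 39 without the libraries that hold Gm10221 reads and 34 with their presence as a term, and none changed direction in these settings.

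The sex difference, 0 genes by limma, became 1 with DESeq2, 1 with the Gm10221 term, and 0 to 2 with a mouse left out (2 without fluoxetine female 1, 1 without fluoxetine female 5). The genotype difference, 0 genes by limma, became 2 with DESeq2 and 1 with the replicate block. The difference for Tanc2, near 0, turned positive at 0.032 with 2 surrogate variables and 0.023 in males alone, and with a mouse left out ranged between -0.025 (without vehicle male 3) and 0.016, positive without fluoxetine female 3 (0.0031) or 5 (0.016), fluoxetine male 4 (0.0036), vehicle female 2 (0.0081) or 3 (0.00066), or vehicle male 1 (0.0023), 2 (0.0031) or 4 (0.0037). With 9 or 10 mice a group and no litter recorded, changes under 1.3-fold are the least surely detected.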

Other observations

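Adm, Calcrl, Adamts1, Edn1 and the genes after them were picked one by one after their values were seen. No list of their kind was counted, apart from genes named Zfp with a number. Adm, which encodes the vasodilator adrenomedullin, had 30.4, 39.6 and 68 normalized reads at its lowest, median and highest in fluoxetine mice, against 50.8, 68.2 and 79.1 in vehicle mice (-0.61 ± 0.15, limma adjusted p = 0.0158). Its receptor Calcrl differed by -0.35 ± 0.09 (adjusted p = 0.0291; without the 4 libraries highest in olfactory bulb markers adjusted p = 0.0636), and the protease Adamts1 by -0.35 ± 0.08, with no overlap between groups. Edn1, which encodes the vasoconstrictor endothelin-1, was higher at 0.52 ± 0.13 (adjusted p = 0.0207), with 85.1, 101 and 137 in fluoxetine mice, against 57.5, 74.8 and 91.5 in vehicle mice. Beside them, 7 of 8 endothelial markers (median -0.098) and 7 of 7 mural markers (median -0.096) lay below 0; their part in these values was not tested.

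Tet3, which oxidises methylated cytosine, had 2214, 2644 and 2948 normalized reads in fluoxetine mice, against 3038, 3204 and 3388 in vehicle mice, with no overlap (-0.31 ± 0.054, limma adjusted p = 0.000475; HT mice -0.31 ± 0.053). Arid3b, a DNA-binding protein, differed by -0.41 ± 0.076, Kdm2a, a histone demethylase, by -0.14 ± 0.035, Setd1b, a histone H3 methyltransferase, by -0.22 ± 0.056, and Taf4, a subunit of the general factor TFIID, by -0.19 ± 0.045. These 5 also passed without the libraries that hold Gm10221 reads. Of 379 tested genes named Zfp with a number, 9 fell and 7 rose (4.22%, where 1.38% of all genes changed), with a median of 0.0079. This name class was chosen with the results known, so its share is a description only.

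Depp1, a FOXO target, had 6.16, 20.7 and 29.2 normalized reads in fluoxetine mice, against 27.8, 56.4 and 88.2 in vehicle mice (-1.50 ± 0.27, limma adjusted p = 0.000498), and was at -2.12 ± 0.26 in HT mice. Tnfrsf25, a death-domain receptor, had 38.9, 72.1 and 109 in fluoxetine mice, against 111, 199 and 272 in vehicle mice, with no overlap (-1.45 ± 0.22, adjusted p = 3.89e-05). Rara, a retinoic acid receptor, and Hes1, a Notch target, differed by -0.61 ± 0.11 and -0.53 ± 0.11.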
